A study of Mus musculus with 12 samples.

Results

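The widest open chromatin regions of mouse LSK and GMP cells were examined, defined as the regions of the deposited count table whose end minus start was at least 1500 bp. The rule selected 1731 of 121336 regions (1.43% of the regions and 6.34% of the covered sequence, 3.32 Mb). Accessibility had been measured by ATAC-seq, in which a transposase cuts and tags open DNA, with the OmniATAC protocol in cells sorted from bone marrow. There were 4 groups of 3 libraries, from 3 mice per group by the study's methods: WT-LSK and URE-LSK, and WT-GMP and URE-GMP. LSK, the Lin- Sca-1+ c-Kit+ population, hold stem and early progenitor cells, and GMP are Lin- Sca-1- c-Kit+ CD16/32+ granulocyte-monocyte progenitors. WT and UREd/d (URE) animals were C57BL/6 littermates of 8 to 12 weeks. URE mice carry a deletion of the upstream regulatory element, an enhancer of Spi1, the gene of the transcription factor PU.1.

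Wide stretches of open chromatin in mammals mostly lie at CpG island promoters, where many CG dinucleotides, unmethylated DNA and a bound transcription machinery keep nucleosomes away over a long distance, often in every cell type. Long open stretches away from such islands are typical of strong enhancer clusters and of the bodies of very actively transcribed genes, and these are more often specific to a lineage. PU.1 is an ETS family factor that binds sites with the core GGAA, mostly in enhancers of myeloid and lymphoid genes, and RUNX1 is one of its partners.

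The following windows show what the sequence of the wide regions looked like, read from GRCm38 on the plus strand, with CG dinucleotides in capitals. Setd5 (chr6:113076401-113076520) had the highest level per kb, Auts2 (chr5:131538645-131538764) the largest rise in URE-LSK, and the region at Mpo (chr11:87801096-87801215), which starts inside the gene and runs past its end, was the widest of all. Each is the 120-base window with the most CG dinucleotides among windows placed at regular steps along its region, 19 at Setd5, 19 at Auts2 and 8 at Mpo.
Setd5: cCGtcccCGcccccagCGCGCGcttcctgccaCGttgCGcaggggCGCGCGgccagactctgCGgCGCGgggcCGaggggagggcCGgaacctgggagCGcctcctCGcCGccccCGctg
Auts2: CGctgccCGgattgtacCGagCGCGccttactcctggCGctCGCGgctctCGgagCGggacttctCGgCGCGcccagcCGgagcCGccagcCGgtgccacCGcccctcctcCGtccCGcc
Mpo: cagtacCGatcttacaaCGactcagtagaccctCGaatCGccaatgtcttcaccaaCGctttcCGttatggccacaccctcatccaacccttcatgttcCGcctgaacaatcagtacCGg

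Among the wide regions that differed between genotypes, the next windows are shown because they hold the PU.1 motif GAGGAAGT, here on the minus strand and therefore read as ACTTCCTC in capitals. They come from the regions near Mcl1 (chr3:95650787-95650866), near E030018B13Rik (chr7:63911082-63911161), near Msi2 (chr11:88599435-88599514) and at Ctsg (chr14:56100859-56100938). The regions near Mcl1 and E030018B13Rik were less accessible in URE-LSK and that near Msi2 in URE-GMP, and the region at Ctsg was more accessible in both.
Mcl1 (6972 bp away): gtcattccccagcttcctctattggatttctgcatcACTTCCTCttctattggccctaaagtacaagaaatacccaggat
E030018B13Rik (4051 bp away): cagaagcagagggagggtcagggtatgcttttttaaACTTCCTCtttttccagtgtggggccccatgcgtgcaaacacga
Msi2 (8406 bp away): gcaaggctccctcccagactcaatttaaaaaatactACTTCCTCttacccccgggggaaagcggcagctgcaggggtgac
Ctsg: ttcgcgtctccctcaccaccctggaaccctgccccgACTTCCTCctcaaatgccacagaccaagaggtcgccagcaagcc

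The RUNX motif AACCACA, or TGTGGTT on the other strand, is in capitals in windows from the regions near Ifnar2 (chr16:91354747-91354826), near Bcl2l14 (chr6:134366742-134366821), at Cd24a (chr10:43578820-43578899) and near Celsr1 (chr15:85909227-85909306). The first 3 fell in URE-LSK and the last rose.
Ifnar2 (16905 bp away): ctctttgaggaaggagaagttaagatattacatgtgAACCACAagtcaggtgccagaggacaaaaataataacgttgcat
Bcl2l14 (28169 bp away): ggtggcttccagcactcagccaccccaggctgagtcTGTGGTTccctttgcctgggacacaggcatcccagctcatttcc
Cd24a: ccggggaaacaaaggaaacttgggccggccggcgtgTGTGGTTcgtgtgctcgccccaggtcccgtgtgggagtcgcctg
Celsr1 (4792 bp away): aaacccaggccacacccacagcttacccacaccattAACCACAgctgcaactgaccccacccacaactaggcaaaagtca

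The allele and the libraries were checked first. In the Spi1 locus, 3 regions between chr2:91080885-91083700 had at most 6 counts in any of the 6 URE libraries and 115 to 2110 in the WT libraries, as the genotype labels say. None of the 28 regions within 50 kb of the Spi1 start site was wide, the widest measuring 1096 bp. Total counts per library ranged from 23072701 to 62204826, and the median count of a wide region from 1614 to 5146, with a lowest single value of 14, so counting error was small for nearly all of them. Of 6 LSK markers and 6 GMP markers, 5 each had a region, and of 5 monocyte markers all, and none of those with a region was at 0. Regions near LSK markers summed to 282 to 339 CPM in the LSK libraries, and to 189 to 235 CPM (WT) and 141 to 153 CPM (URE) in GMP. Regions near GMP markers summed to 131 to 204 CPM in LSK, and to 672 to 900 CPM (WT) and 1079 to 1138 CPM (URE) in GMP. Regions near monocyte markers summed to 119.9 to 125 CPM (WT) and 88.9 to 92.3 CPM (URE) in LSK, and to 161 to 188 CPM (WT) and 102 to 126 CPM (URE) in GMP. The genotypes thus did not overlap in the monocyte sums of either cell type or in any of these 3 sums in GMP. Among other marker sets, URE also lay above WT without overlap for B cells in both cell types. The same held in LSK for erythroid cells (66.4 to 68.7 CPM in WT, 75.7 to 81.5 CPM in URE) and for basophils and mast cells. For megakaryocytes URE lay below WT in GMP (117 to 130 against 150 to 194 CPM), and T cell sums overlapped. The part of these shifts in the results that follow was not tested. In bulk libraries, fewer cells of a type and less accessibility per cell cannot be told apart.

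Wide regions were mainly CpG-rich promoters. Of the 1731, 1547 (89.4%) lay within 500 bp of an annotated transcript start, against 17.9% of the 119605 narrower regions, and 184 lay elsewhere. Their median GC content was 62.3% (narrower regions, 49.7%), and the median ratio of observed to expected CG dinucleotides was 0.767 (narrower regions, 0.235). This ratio was over 0.6 in 77.5% of the wide and 11.2% of the narrower regions. The 184 wide regions away from promoters had a ratio of 0.302, far closer to that of the narrower regions. Starts of at least 2 protein-coding genes fell inside 196 wide regions (11.3%), and in 179 the starts were on both strands.

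The width of the 1731 regions had a median of 1766 bp, against 322 bp over all regions, and reached 7997 bp; 474 were at least 2000 bp, 62 at least 3000 bp and 9 at least 5000 bp. They lay on 20 chromosomes, with 149 on chromosome 11 and 25 on the X chromosome. Just inside the limit, 3 regions of 1500 bp at Prkx, Tmem123 and Mars had mean levels of 43.8, 104.5 and 62.5 CPM over the 12 libraries. Just outside, 3 regions that were 1 bp narrower, at Foxj2, Rcn3 and Mxd4 had 103, 50.8 and 117 CPM, so the limit cuts through a continuous range. CPM are counts scaled to equal library totals after TMM normalization.

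Accessibility per length was also higher. The median level was 41.5 CPM per kb in wide and 8.73 CPM per kb in narrower regions, as a mean over the 12 libraries. At promoters alone, the medians were 43.2 and 18.9 CPM per kb, and away from promoters 28.5 and 7.79 CPM per kb. Peaks had been called on the reads themselves, so that level and width were not measured independently. By group, the median of the wide regions was 36.1 CPM per kb (WT) and 43.8 (URE) in LSK, and 40.8 (WT) and 46.9 (URE) in GMP. Replicates varied less at the wide regions, with a median SD of log2 CPM within groups of 0.109 against 0.292 in narrower regions. Wide regions also held more counts, with a median of 77.5 CPM per region against 2.85, and the part of this in the SD was not tested.

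**Figure D1:**
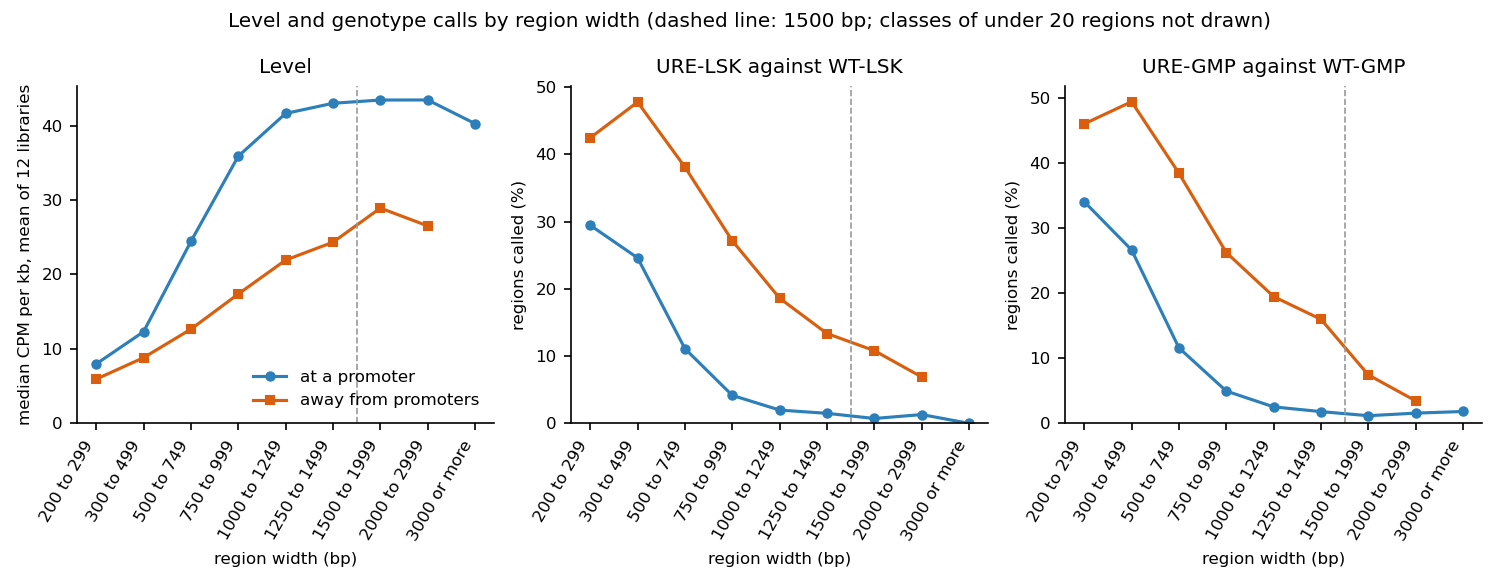
Median CPM per kb (left) and percentage of regions called between URE and WT in LSK (middle) and GMP (right), by width in bp, for regions at a promoter and away from promoters. Per kb the level rose with width and then stayed between 40.3 and 43.4 CPM per kb at promoters from 1500 bp on, while the share called in LSK fell from 29.5% of promoter regions of 200 to 300 bp to 0.721% of those of 1500 to 2000 bp, and from 42.5% to 10.8% away from promoters.

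Of the 10 widest regions, the 9 given here lay at granule, histone and AP-1 genes and at nuclear long non-coding RNA genes, among others. The widest covered 7997 bp of the Mpo locus (myeloperoxidase, the main granule enzyme of neutrophils, chr11:87800926-87808922). Next came the nuclear long non-coding RNA Neat1 with 7985 bp, a histone cluster with Hist1h2ad with 6896 bp, Tspoap1 with 6816 bp, Irf2bp2 with 5675 bp, the AP-1 subunit gene Jund with 5659 bp, Malat1 (also a nuclear long non-coding RNA) with 5544 bp, the AP-1 gene Jun with 5451 bp and Midn with 4993 bp. Apart from Mpo, none of these 9 was called in any of the 5 comparisons, which required an adjusted p under 0.05 and a fold change over 2. The same held for 92.0% of all wide regions. The region at Neat1 had 224, 209.8 and 193 CPM for the WT-LSK libraries, 313, 295 and 243 CPM for URE-LSK, 293, 219 and 227 CPM for WT-GMP and 417, 404 and 373 CPM for URE-GMP, so that URE lay above WT in both cell types without overlap. The region at Jun had 205 ± 12.4 CPM for WT-LSK, 275 ± 35.4 CPM for URE-LSK, 219.8 ± 25.4 CPM for WT-GMP and 268 ± 3.42 CPM for URE-GMP (SD, n = 3).

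The highest levels per kb were found at other promoters. Setd5, which encodes a SET domain protein, led with 111 CPM per kb, followed by the transcription factor Sp1 with 106, Zbtb20 with 105, the nuclear import receptor Kpnb1 with 102, the splicing factor Sf1 with 100.2, Lnpep with 99.1, Ppp2r3d with 98.9 and the ubiquitin-conjugating enzyme Ube2d3 with 97.6 CPM per kb. At Setd5 the libraries had 161, 157 and 153 CPM for WT-LSK, 212, 199.7 and 205 CPM for URE-LSK, 179.6, 193 and 214 CPM for WT-GMP and 245, 247 and 269.7 CPM for URE-GMP. None of the 8 was called in any comparison, nor was any of the 274 wide promoter regions at 60 or more CPM per kb. Of all wide regions, 92.0% were called in none.

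Some wide regions stood close together. With gaps of up to 5 kb, 93 of them (5.37%) formed 44 chains, of which 4 had 3 or more members. These were Mpo with 4, and the RNA-binding feedback regulator gene Zfp36, the locus of Vmp1 and Mir21a, and the Nanos3 neighbourhood with 3 each.

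Genes of several regulatory classes had a wide region within 5 kb of a start far more often than the average gene. Over all protein-coding genes with any region in that distance, the share was 11.3% (1861 of 16527). It was 64.0% for stem and progenitor transcription factors (16 of 25), 60.6% for immediate early and feedback genes (20 of 33), 57.1% for chromatin regulators (16 of 28), 54.5% for myeloid transcription factors (12 of 22) and 47.4% for cell cycle genes (9 of 19). Survival and autophagy genes had 30.4% (7 of 23), granule and phagocyte genes 28.6% (6 of 21) and cytokine receptors with their signalling genes 17.4% (4 of 23). Replication-dependent histone genes stand side by side and had 91.1% (41 of 45, sharing 18 regions), and ribosomal protein genes 4.88% (4 of 82). These shares describe lists that were drawn up with earlier results of the data known, and were not tested.

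The wide regions took a larger part of each library in URE than in WT. Their share of the counts was 13.1% ± 0.270 (SD, n = 3) for WT-LSK and 14.6% ± 0.222 for URE-LSK, and for GMP it was 14.2% ± 0.638 (WT) and 15.1% ± 0.0700 (URE). All 3 URE libraries lay above all 3 WT libraries in LSK, and likewise in GMP (exact two-sided permutation p = 0.1 for each, the smallest that 3 against 3 can give). Wide regions away from promoters held 0.972% ± 0.0113 of the LSK counts in WT and 1.04% ± 0.0217 in URE (exact permutation p = 0.1), and 1.01% ± 0.0719 of the GMP counts in WT against 1.03% ± 0.00729 in URE (exact permutation p = 0.7). A share of the library moves when other regions lose or gain counts, so it does not show by itself which regions changed.

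The first comparison asked how loss of the enhancer altered wide regions in LSK. In URE-LSK, a promoter at a transcript start inside the chromatin regulator gene Auts2 rose. So did the promoter of Wwtr1, which encodes the Hippo pathway co-activator TAZ, and the gene of the granule protease cathepsin G (Ctsg). Regions near Smyd3, Ifnar2 and Mcl1 and the promoter of Cd24a fell. Of the 1731 regions, 19 rose and 12 fell by more than 2-fold (edgeR's quasi-likelihood test, adjusted p under 0.05). Over all regions tested, 13.6% were called higher and 23.9% lower. Thus 1.79% of the wide regions were called, against 38.0% of the narrower ones. The log2 fold changes ran from 1.01 to 2.85 among those that rose and from -2.86 to -1.01 among those that fell.

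The balance of rises and falls moved with the scaling used. Under GC content offsets 37 wide regions rose and 7 fell in URE-LSK. Higher calls were the minority with loess offsets against abundance (10 rose, 19 fell), with TMM factors from promoter regions (11 and 16) and with library size only (11 and 14). The fold changes that passed the test and are given below for regions named by rule kept their direction and an adjusted p under 0.05 under all of these scalings, but calls near 2-fold did not all keep a log2 fold change over 1. Over all alternatives without left-out libraries, it came down to 0.83 at Sytl1, 0.82 at Atp1b1, 0.98 near Pcdh7, 0.88 at Cuedc1 and -0.93 near E030018B13Rik in LSK. In GMP it came down to 0.87 at Sytl1, 0.90 at Atp1b1, 0.82 at Celsr1, 0.85 at Nrarp, 0.97 near Tbc1d16, -0.70 near Msi2, -0.85 near Trio and -0.96 at Hoxa9, and to just under 1 at Ctsg. It came down to 0.96 at Rasgrp2 in the change from LSK to GMP in WT, and to -0.98 at Fam181b in the difference between the genotype effects of GMP and LSK.

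The Auts2 region (chr5:131537065-131539033), a CpG island, lies at a transcript start inside the gene, whose outermost start is at 132543344 on the minus strand. It had 9.63, 8.53 and 8.93 CPM for WT-LSK and 77.0, 54.8 and 63.1 CPM for URE-LSK. In GMP it had 12.5, 8.39 and 8.41 CPM in WT and 45.7, 35.5 and 46.8 CPM in URE. The lowest URE library thus stood at several times the highest WT library in LSK. The log2 fold change was 2.85 (SE 0.17, adjusted p = 4.09e-09) in LSK and 2.14 (SE 0.16, adjusted p = 6.28e-08) in GMP. At the Wwtr1 promoter (chr3:57574851-57576621), the LSK libraries had 18.1, 15.1 and 17.0 CPM in WT and 54.7, 55.9 and 48.9 CPM in URE, a log2 fold change of 1.66 (SE 0.16, adjusted p = 2.71e-07). In GMP it rose likewise, from 15.5 ± 4.11 CPM to 41.7 ± 7.05 CPM, a log2 fold change of 1.44.

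The other regions called higher in URE-LSK with the smallest p were at or near Atp1b1, Pcdh7, Celsr1, Sytl1, Cuedc1 and Gcc1. The promoter of Atp1b1, a subunit of the sodium pump, went from 50.3 ± 4.55 CPM to 107 ± 7.76 CPM, with a log2 fold change of 1.09 (SE 0.12, adjusted p = 1.08e-06). A region 1654 bp from the start of the protocadherin gene Pcdh7 went from 38.6 ± 3.12 CPM to 91.2 ± 8.89 CPM (log2 fold change 1.24), and an intronic region 4792 bp from a start of Celsr1, a cadherin of planar cell polarity, from 13.8 ± 1.28 CPM to 33.1 ± 2.57 CPM (1.26). Regions at Sytl1, a gene of vesicle transport, and Cuedc1 and one 9321 bp from Gcc1, a Golgi protein gene, rose by 1.02, 1.08 and 1.27 on the log2 scale.

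The Ctsg region (chr14:56100456-56102848) had 3.86, 3.02 and 3.08 CPM for WT-LSK and 9.47, 8.96 and 19.5 CPM for URE-LSK, with replicate 3 of URE-LSK well above the other 2 libraries. With all libraries the log2 fold change reached 1.93 (SE 0.25, adjusted p = 5.76e-06), and it was 1.47 at the lowest when single libraries were left out. The same library also stood apart at the widest Mpo region, as given below. The summed GMP markers of the URE-LSK libraries spanned 131 to 204 CPM, and their part in this result was not tested.

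Wide regions that fell in URE-LSK were mostly away from promoters (9 of 12, against 184 of 1731 for all wide regions). The strongest fall was in an intron of Smyd3, a lysine methyltransferase gene, 84363 bp from its start (chr1:179162848-179164477), with 17.3, 21.5 and 16.1 CPM for WT-LSK and 1.5, 2.68 and 3.31 CPM for URE-LSK, a log2 fold change of -2.86 (SE 0.21, adjusted p = 2.71e-08). An intergenic region 16905 bp from the start of Ifnar2, a chain of the type I interferon receptor (chr16:91354255-91355878), had 70.1, 70.0 and 63.5 CPM and 9.47, 14.1 and 13.2 CPM, a log2 fold change of -2.47 (SE 0.15, adjusted p = 5.50e-09). Near Mcl1, an anti-apoptotic member of the Bcl2 family (chr3:95650236-95651816), values were 19.4, 18.4 and 18.1 CPM and 3.35, 5.72 and 4.21 CPM, a log2 fold change of -2.08 (SE 0.24, adjusted p = 2.37e-06). The WT-LSK level differed between these 3, and was highest near Ifnar2.

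An intronic region 28169 bp from the start of Bcl2l14, named as a Bcl2-like gene (chr6:134365991-134368149), was the call with the smallest p: it went from 58.7 ± 1.15 CPM to 17.3 ± 0.624 CPM, a log2 fold change of -1.76 (SE 0.09, adjusted p = 1.87e-09). The promoter of Cd24a, which encodes a small surface glycoprotein (chr10:43578284-43580305), had 83.8, 83.8 and 79.8 CPM for WT-LSK and 20.7, 28.4 and 20.8 CPM for URE-LSK, a log2 fold change of -1.83 (SE 0.19, adjusted p = 6.04e-07). It is one of 3 promoters that fell and has a CpG island (ratio 0.74). Near E030018B13Rik (chr7:63910885-63912806) the fall was from 63.8 ± 1.47 CPM to 29.3 ± 4.78 CPM.

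The same question was asked in GMP. There, regions at Auts2, at Wwtr1 and near the genes of the interferon gamma receptor chain Ifngr1 and the chemerin receptor Cmklr1 rose, and regions near Fry and at Fam181b, Arhgap12, Cd24a and Hoxa9 fell. Of the wide regions 24 rose and 9 fell in URE-GMP, against 15.6% and 24.1% over all regions tested. Called were 1.91% of the wide and 40.2% of the narrower regions. The split again depended on scaling, with 17 higher and 22 lower under loess offsets, 17 and 18 with TMM factors from promoter regions, 18 and 18 with library size only, and 20 and 14 among regions with a mean of at least 2 CPM.

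The intronic region 1333 bp from the Ifngr1 start (chr10:19593406-19595000) had 12.5, 10.8 and 6.82 CPM for WT-GMP and 48.9, 51.5 and 49.2 CPM for URE-GMP, a log2 fold change of 2.32 (SE 0.17, adjusted p = 6.00e-08). Its LSK levels were 5.69 ± 0.537 CPM and 9.79 ± 1.23 CPM, so that URE-GMP alone stood high. Near Cmklr1 (chr5:113639241-113640749) the values were 8.37, 5.58 and 7.61 CPM for WT-GMP and 33.0, 27.4 and 36.7 CPM for URE-GMP, a log2 fold change of 2.18 (SE 0.18, adjusted p = 1.44e-07). In LSK this region went from 7.66 ± 1.04 CPM to 17.9 ± 3.5 CPM, a log2 fold change of 1.22.

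Further rises in URE-GMP included the promoter of Nrarp, a Notch-regulated gene, from 32.5 ± 2.14 CPM to 67.5 ± 0.927 CPM, with a log2 fold change of 1.06. The Celsr1 promoter rose by 1.04 and the intronic region 4792 bp from a Celsr1 start by 1.49 on the log2 scale, so that both wide regions of this gene passed the test in GMP. An intronic region of Abtb2 rose from 27.9 ± 2.74 CPM to 67.1 ± 5.95 CPM (1.27). At Ctsg the GMP libraries had 58.4, 44.9 and 42.0 CPM in WT and 108, 105 and 101 CPM in URE, a log2 fold change of 1.12 (SE 0.21, adjusted p = 2.69e-04). The summed GMP markers were likewise higher in URE-GMP (1079 to 1138 CPM) than in WT-GMP (672 to 900 CPM), and their part in the Ctsg result was not tested.

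The largest fall of any wide region between genotypes was in an intron near a start of Fry, a gene of the cytoskeleton (chr5:150443837-150445791), with 23.0, 34.3 and 24.8 CPM for WT-GMP and 0.926, 1.46 and 1.09 CPM for URE-GMP. The log2 fold change was -4.55 (SE 0.25, adjusted p = 7.28e-09). It was also low in LSK, with 1.68, 2.37 and 2.80 CPM in WT and 0.619, 0.391 and 0.534 CPM in URE with a log2 fold change of -2.13 (SE 0.28, adjusted p = 6.98e-06), and WT-GMP was the only group above 3 CPM. Its width of 1955 bp had been set on the peaks of all groups together.

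Among promoters that fell in URE-GMP, Fam181b (chr7:93079706-93081317) went from 22.7, 21.7 and 24.7 CPM to 6.41, 7.91 and 7.80 CPM, a log2 fold change of -1.64 (SE 0.11, adjusted p = 2.51e-08). At Arhgap12, which encodes a GTPase-activating protein, the values were 51.0, 35.7 and 39.4 CPM and 14.4, 17.2 and 11.6 CPM, a log2 fold change of -1.54 (SE 0.14, adjusted p = 4.16e-07). The promoter of Hoxa9, a homeobox factor of stem and progenitor cells (chr6:52228935-52231102), had 35.2, 23.0 and 30.1 CPM for WT-GMP and 13, 18.2 and 12 CPM for URE-GMP, a log2 fold change of -1.02 (SE 0.15, adjusted p = 3.19e-05). The summed LSK and monocyte markers, given above, were likewise lower in URE-GMP, and their part in these falls was not tested.

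Cd24a fell in GMP from 89.4 ± 22.4 CPM to 34.5 ± 8.81 CPM (log2 fold change -1.37). Cd24a and the Fry region were the only ones called lower, with the fold threshold, in both cell types. Without that threshold, regions near Bcl2l14, Ifnar2 and Smyd3, among others, were also lower in URE-GMP. Their log2 fold changes in GMP were -0.90, -0.90 and -0.79. The plexin gene Plxnc1 fell by 1.07 on the log2 scale, and introns of Msi2, an RNA-binding protein of stem cells, and of Trio, a guanine nucleotide exchange factor, fell by 1.08 and 1.12.

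**Figure D2:**
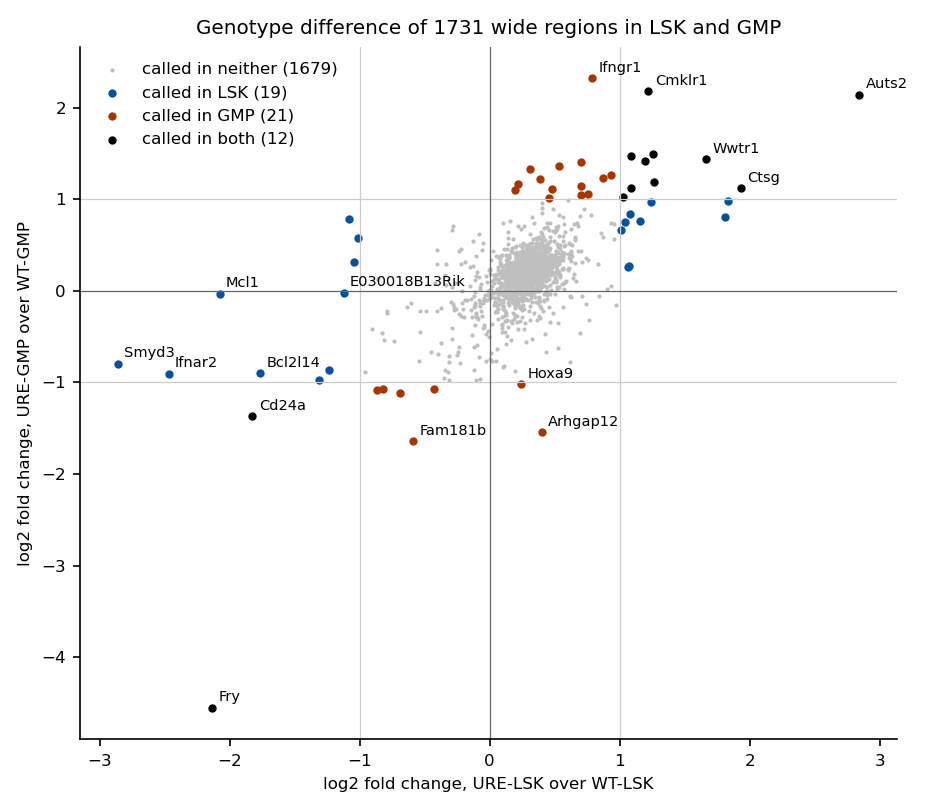
Log2 fold change of URE over WT in LSK (x axis) and GMP (y axis) for the 1731 wide regions, named by the nearest protein-coding start where labelled. 1679 regions were called in neither cell type, 19 in LSK only, 21 in GMP only and 12 in both, and no region was called in opposite directions.

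Calls were shared in part. No library served both genotype comparisons. Of the wide regions that rose, 10 did so in both cell types, which is 52.6% of the LSK and 41.7% of the GMP calls, and of those that fell, 2 did so in both (16.7% and 22.2%). No wide region was called in opposite directions. In narrower regions the shared calls were 62.1% and 54.1% of those that rose and 78.4% and 78.0% of those that fell.

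Without the fold threshold, many wide regions passed the test with small differences. In URE-LSK 1152 were higher and 54 lower at an adjusted p under 0.05, against 27.9% and 28.9% of all regions tested. In URE-GMP 899 were higher and 105 lower, against 29.6% and 31.2%. The median log2 fold change of the wide regions was 0.28 in LSK and 0.21 in GMP, beside 0.13 and 0.05 in narrower regions. The order of wide and narrower regions turned with GC content offsets, where the medians were 0.16 and 0.29 in LSK, and 0.12 and 0.21 in GMP, and with loess offsets, where they were -0.012 and 0.18 in LSK, and -0.046 and 0.13 in GMP. The excess of higher over lower calls kept its direction but not its size under all scalings other than loess offsets, which by construction centre the changes at each abundance. With loess offsets 188 wide regions were higher and 271 lower in LSK, and 184 higher and 431 lower in GMP. With TMM factors from promoter regions the counts were 588 and 114 in LSK, and 504 and 226 in GMP, with library size only 760 and 86, and 514 and 206, with GC content offsets 769 and 67, and 624 and 160, and with DESeq2 1295 and 45, and 1082 and 90. Relative to the main scaling, the median over all regions moved in LSK by -0.16 with TMM factors from promoter regions, by -0.12 with library size only and by 0.15 with GC content offsets, and in GMP by -0.13, -0.12 and 0.15.

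**Figure D3:**
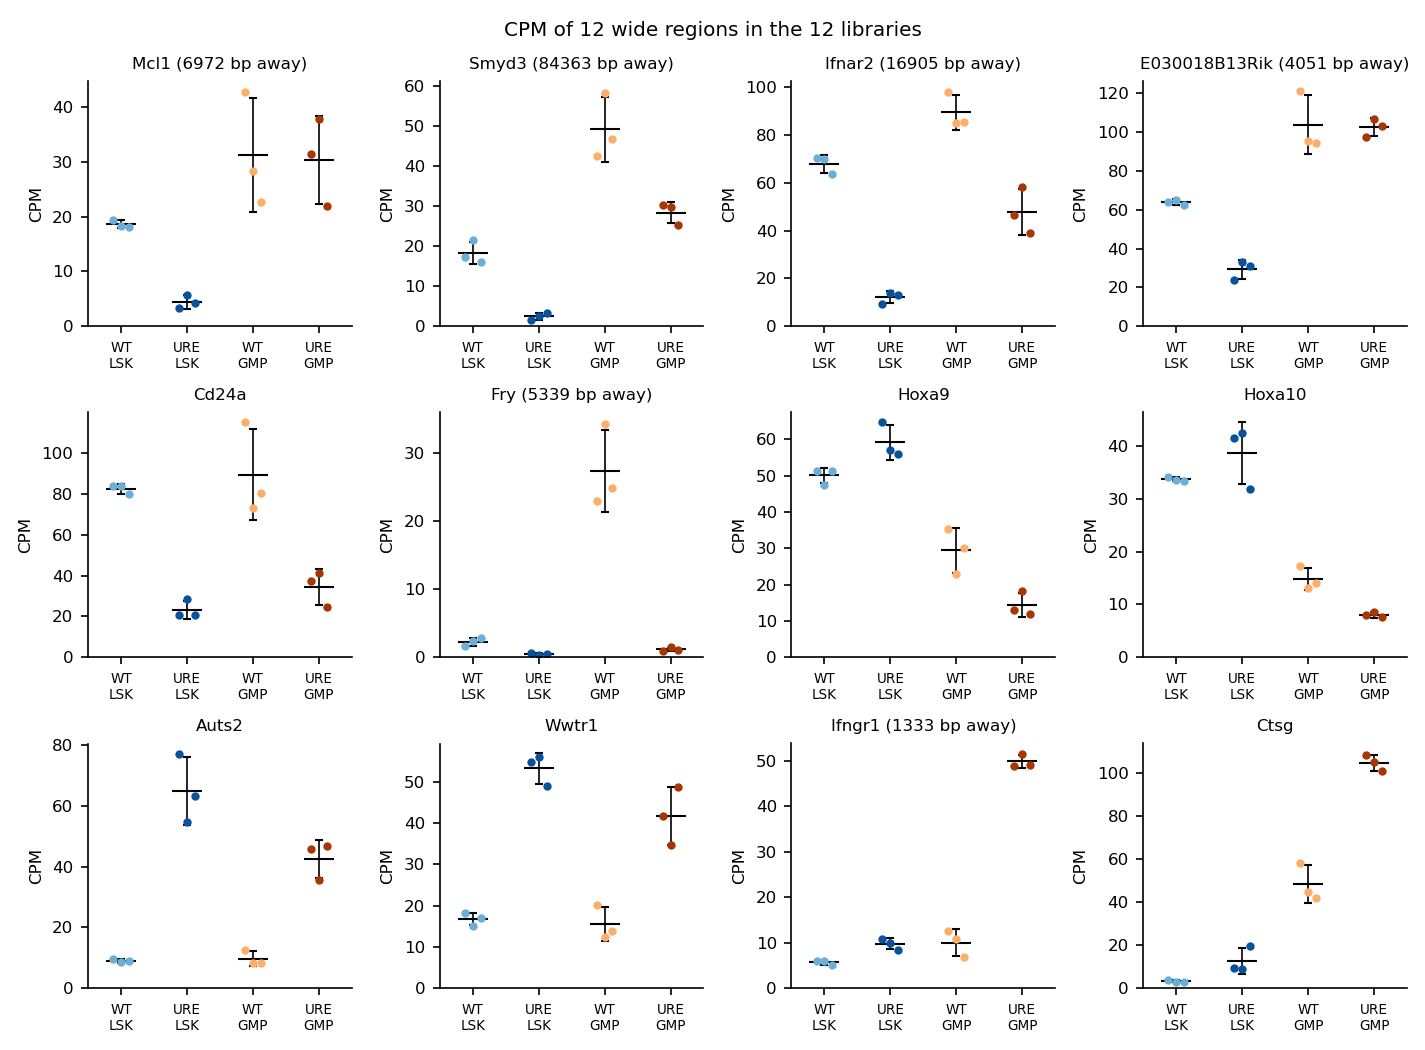
CPM in each of the 12 libraries for 12 wide regions, with the mean (horizontal line) and SD (error bars) of the 3 libraries per group, each panel with its own linear axis from 0. At Auts2 all URE libraries (35.5 to 77.0 CPM) lay above all WT libraries (8.39 to 12.5 CPM), and near Mcl1 the 3 URE-LSK libraries (3.35 to 5.72 CPM) lay below all others (18.1 CPM or more).

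Calls among wide regions were more frequent away from promoters and at low levels per kb. At promoters 0.840% of wide and 15.6% of narrower regions were called in LSK, and away from promoters 9.78% and 42.9%. In GMP the shares were 1.29% and 17.3% at promoters, and 7.07% and 45.2% elsewhere. The called wide regions had median levels of 17.2 CPM per kb (higher in LSK), 18.2 (lower in LSK), 17.5 (higher in GMP) and 19.5 (lower in GMP), against 41.8 CPM per kb for those not called, in LSK as in GMP. In LSK the median CG ratio was 0.312 in the 19 regions that rose, 0.195 in the 12 that fell and 0.770 in the others.

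Regions of equal level per kb were then compared. Between 10 and 20 CPM per kb, 7.59% of 79 wide promoter regions were called in LSK, against 16% of the narrower promoter regions, and away from promoters 22.7% of 44 wide regions against 28.9%. Between 20 and 30 CPM per kb the shares were 1.88% and 6.66% at promoters, and 3.64% and 20% away from them. Between 30 and 45 CPM per kb they were 0.374% and 1.25% at promoters, and 6.90% and 8.87% away from them. At 45 to 60 CPM per kb, none of 444 wide promoter regions and 19 others was called by edgeR with the fold threshold in any of the 5 comparisons. Calls were also rare among narrower promoter regions of that level, with 0.130% in LSK and 0.0868% in GMP. Away from promoters the narrower regions had 1.78% and 3.17%.

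The order was not the same at equal total level, in CPM per region. Between 30 and 60 CPM, 1.96% of the wide and 0.581% of the narrower promoter regions were called in LSK, and away from promoters 4.60% and 5.0%. Between 10 and 30 CPM, away from promoters, 30% of 30 wide regions and 22.4% of the narrower regions were called. At a given CPM a wide region has a lower density than a narrower one, so neither comparison sets all properties equal.

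**Figure D4:**
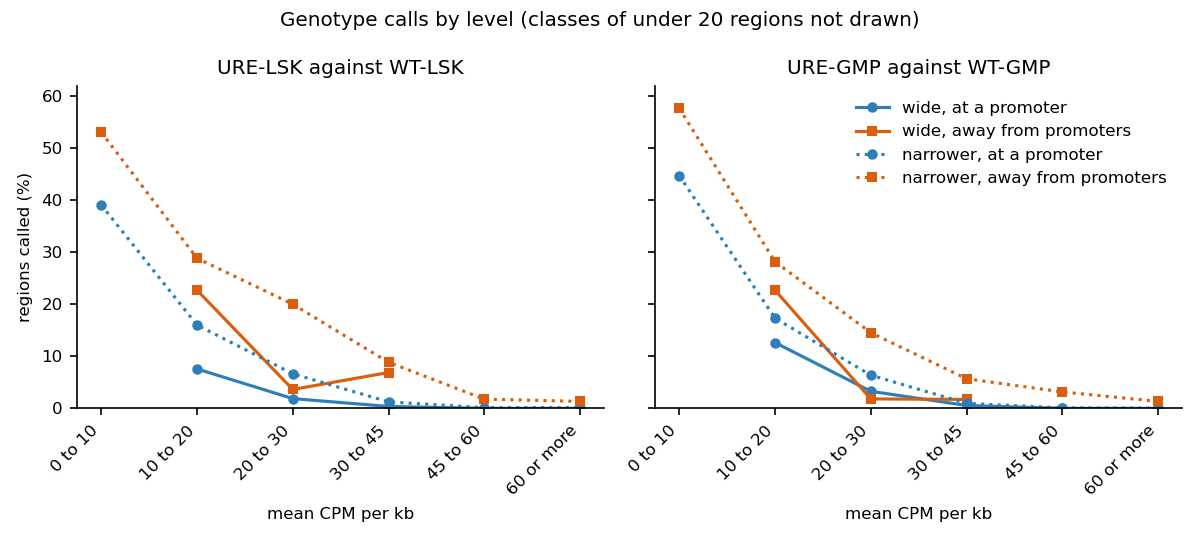
Percentage of regions called between URE and WT in LSK (left) and GMP (right) by mean CPM per kb over the 12 libraries, for wide (solid) and narrower (dotted) regions at a promoter or away from promoters. Called shares fell with level in both kinds of region; at 10 to 20 CPM per kb the wide regions stood at 7.59% and 22.7% in LSK, below the narrower regions at 16% and 28.9%.

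The interaction tested whether the genotype difference was itself different in GMP and LSK. Wide regions near Mcl1, Ifnar2, Smyd3 and E030018B13Rik fell in URE-LSK and were not called in URE-GMP, whereas Hoxa9 and Arhgap12 fell in URE-GMP alone and the region near Fry fell further there. Of the wide regions 9 had a higher and 11 a lower log2 fold change in GMP than in LSK by over 1, against 8.96% and 5.03% of all regions tested. Near Mcl1 the GMP libraries had 42.7, 28.3 and 22.6 CPM in WT and 31.4, 37.9 and 21.9 CPM in URE, which overlap, and the interaction was 2.05 (SE 0.33, adjusted p = 6.47e-04). At Arhgap12 the LSK libraries had 60.6, 50.7 and 51.5 CPM in WT and 76.9, 72.4 and 65.5 CPM in URE, slightly above WT, where URE-GMP was below WT-GMP, an interaction of -1.94 (SE 0.20, adjusted p = 2.57e-05).

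The next comparisons followed the step from LSK to GMP, in WT and in URE. Wide regions at granule genes opened, and regions at Hoxa10 and near Cdkn1c closed. In WT 30 wide regions rose and 18 fell from LSK to GMP, against 21.0% and 16.8% of all regions tested, and in URE 53 rose and 51 fell, against 27.6% and 21.6%. The 2 steps share no library. Wide regions called in both were 26 of those that rose (86.7% of the WT and 49.1% of the URE calls) and 15 of those that fell (83.3% and 29.4%), with none in opposite directions. In narrower regions the shared calls were 86.1% and 65.5% of those that rose and 79.2% and 61.9% of those that fell.

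Of the 8 wide regions at granule and phagocyte genes, 7 rose in both steps. A peak in GMP alone is enough to make a region wide, and such a region would rise by selection. At Ctsg, for example, the level was 1.39 CPM per kb in WT-LSK and 20.2 in WT-GMP. The count of 7 is therefore a description only. Over all wide regions, 1.73% rose in the WT step and 3.06% in the URE step. Of these 7, 4 are neighbours at the Mpo gene, and Mpo, Elane, Prtn3 and Ctsg were also GMP markers above. At the widest Mpo region the libraries had 17.8, 13.4 and 12.1 CPM for WT-LSK, 16.5, 12.1 and 35.3 CPM for URE-LSK, 238, 181 and 166 CPM for WT-GMP and 336, 313 and 371 CPM for URE-GMP. GMP lay far above LSK in both genotypes, and replicate 3 of URE-LSK was above the other URE-LSK libraries. The log2 fold change was 3.75 (SE 0.29, adjusted p = 1.37e-07) in WT and 3.99 (SE 0.29, adjusted p = 1.77e-08) in URE. The eighth region, at Eif4a1 beside Cd68, had 109 ± 3.62 CPM for WT-LSK and 118 ± 9.33 CPM for WT-GMP, and did not pass the test in WT. In the URE step it had an adjusted p under 0.05, but its log2 fold change of 0.23 was below the fold threshold.

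The Mpo gene carried the longest run of wide regions. Its 4 wide regions spanned chr11:87793172-87808922, from 409 bp before the start site to 15341 bp after it, and together covered 14707 bp. From the start onward their mean level in WT-GMP was 46.5, 16.3, 15.9 and 24.4 CPM per kb, and in WT-LSK 8.03, 1.0, 1.09 and 1.81 CPM per kb. In URE-GMP they reached 63.2, 24.4, 25.9 and 42.6 CPM per kb. All 4 passed the test in both steps (log2 fold changes 2.53 to 3.99 in WT and 3.37 to 4.33 in URE), and none in a genotype comparison with the fold threshold. Beyond them, a narrower region of 385 bp, 17883 to 18267 bp after the start, behaved otherwise: its LSK levels were 11 ± 0.951 CPM (WT) and 0.645 ± 0.171 CPM (URE), and its GMP levels 10.9 ± 2.40 and 2.67 ± 0.576 CPM (SD, n = 3). Its log2 fold change between genotypes was -4.10 (SE 0.26, adjusted p = 7.21e-09) in LSK and -2.03 (SE 0.22, adjusted p = 1.57e-06) in GMP.

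**Figure D5:**
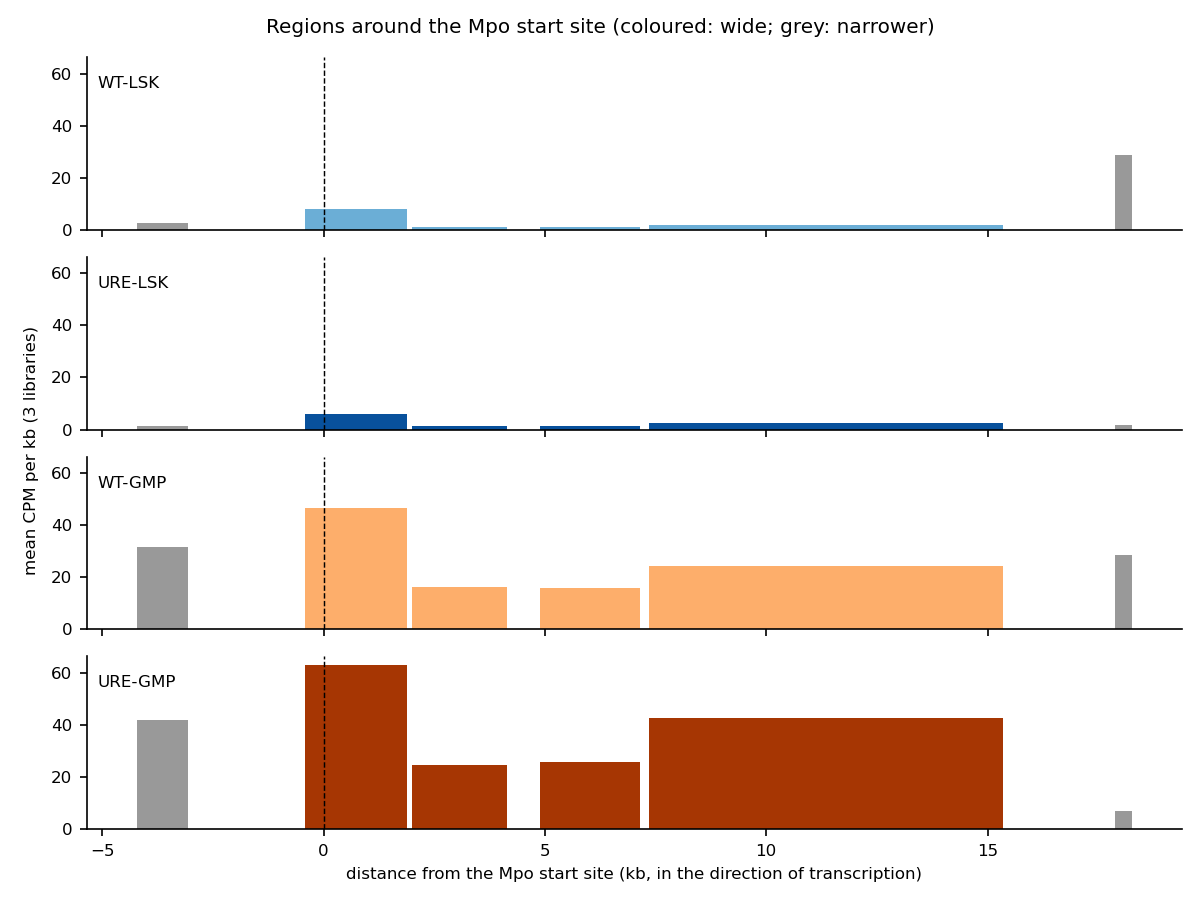
Mean CPM per kb of 3 libraries in each group for the open chromatin regions around the Mpo start site, with wide regions coloured, narrower regions grey and bar width equal to region width in kb from the start (dashed line). The 4 wide regions rose from 1.0 to 8.03 CPM per kb in WT-LSK to 24.4 to 63.2 in URE-GMP, whereas the narrower region at about 18 kb was near 28 CPM per kb in both WT groups and 1.68 (LSK) and 6.94 (GMP) in URE.

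At the other granule genes, the Ctsg region rose from 3.32 ± 0.468 CPM for WT-LSK to 48.4 ± 8.72 CPM for WT-GMP and from 12.7 ± 5.97 CPM to 105 ± 3.64 CPM in URE. A region between the neutrophil protease genes Elane and Prtn3 (chr10:79883042-79884866) had 18.1, 17.5 and 18.4 CPM for WT-LSK, 68.7, 57.4 and 53.1 CPM for WT-GMP, 12.7, 15.4 and 16.2 CPM for URE-LSK and 64.0, 62.1 and 58.6 CPM for URE-GMP. GMP was high in both genotypes and the genotypes were close, with log2 fold changes of 1.73 in WT and 2.06 in URE between LSK and GMP. Near Ncf1, which encodes a subunit of the phagocyte NADPH oxidase, the step gave 1.72 and 1.58.

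The largest step was in an intergenic region 50547 bp from Gm11084 (chr2:73037263-73038797), with 0.971, 1.39 and 1.19 CPM for WT-LSK and 45.3, 35.2 and 23.3 CPM for WT-GMP, a log2 fold change of 4.88 (SE 0.31, adjusted p = 4.06e-08). In URE it went from 1.69, 1.98 and 4.02 CPM to 59.5, 62.8 and 53.4 CPM. URE-LSK was also called above WT-LSK there, with a log2 fold change of 1.15 (SE 0.32, adjusted p = 0.00654), but without replicate 3 of URE-LSK the log2 fold change was 0.65 and the adjusted p 0.0701. At the promoter of Rasgrp2, an activator of the GTPase Rap1, values rose from 35.0 ± 1.69 CPM to 72.9 ± 4.29 CPM in WT and from 45 ± 1.89 CPM to 105 ± 0.764 CPM in URE.

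Wide regions that closed from LSK to GMP included the promoter of Hoxa10 (chr6:52233510-52235127), with 34.1, 33.6 and 33.3 CPM for WT-LSK and 17.2, 13.2 and 14.2 CPM for WT-GMP, and 41.6, 42.4 and 31.8 CPM for URE-LSK and 7.99, 8.60 and 7.56 CPM for URE-GMP. The log2 fold change was -1.19 (SE 0.12, adjusted p = 1.48e-06) in WT and -2.26 (SE 0.13, adjusted p = 3.61e-09) in URE. At the neighbouring Hoxa9 promoter, the levels were 50 ± 2.19 CPM, 59.2 ± 4.78 CPM, 29.4 ± 6.14 CPM and 14.4 ± 3.28 CPM for WT-LSK and URE-LSK, then WT-GMP and URE-GMP, and the call was made in URE alone (-2.03). A region 68460 bp from Cdkn1c, a cell cycle inhibitor gene of quiescent stem cells (chr7:143389275-143390851), fell from 31.1 ± 2.81 CPM to 4.74 ± 1.84 CPM in WT and from 31.5 ± 5.30 CPM to 2.81 ± 0.248 CPM in URE. The region 89 bp from Dot1l, the histone H3 lysine 79 methyltransferase gene, fell by 1.22 in WT and 1.44 in URE on the log2 scale, and an intron of Sgsm1 by 1.81 and 2.96.

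The gene lists were then followed through the comparisons. Over all wide regions, 1.79% were called between genotypes in LSK and 1.91% in GMP. Of the 20 at stem and progenitor factors, none was called between genotypes in LSK, and in GMP 1 at Myb rose and 1 at Hoxa9 fell. In the URE step 5 of these 20 were called, 2 higher and 3 lower with log2 fold changes of -2.26 to 3.80, against 6.01% of all wide regions, and 2, at Hoxa9 and Hoxa10, were called in the interaction. Among 12 at myeloid factors, none was called between genotypes; Cebpd, a myeloid C/EBP factor, rose in the URE step from 37.3 ± 0.255 CPM to 94.3 ± 3.86 CPM with a log2 fold change of 1.34 (SE 0.08, adjusted p = 4.46e-09), and 1 region, at Maf, fell. At Cebpa, the C/EBP factor needed for GMP formation, the levels were 74.9 ± 4.18 CPM for WT-LSK, 74.9 ± 0.884 CPM for URE-LSK, 117 ± 16.5 CPM for WT-GMP and 138 ± 2.49 CPM for URE-GMP.

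None of the 25 wide regions at immediate early and feedback genes was called in any of the 5 comparisons, which was also the case for 92.0% of all wide regions. Without the fold threshold 14 of them were higher and 1 lower in URE-LSK, where 66.6% of all wide regions were higher. None of the 4 at cytokine receptor genes, the 9 at cell cycle genes, the 4 at ribosomal protein genes or the 18 at histone genes was called either. The 18 histone regions had log2 fold changes of 0.20 to 0.84 between LSK and GMP in WT, with a median of 0.44. The median was 0.16 over all wide regions and -0.01 in narrower regions. Of 18 at chromatin regulators, 1, at Chd7, rose in both steps. Of 9 at survival and autophagy genes, 1 near Vmp1, which encodes an autophagy protein of the endoplasmic reticulum, rose in URE-LSK by 1.07 on the log2 scale and fell in the URE step by 1.26. A separate wide region at the Vmp1 promoter itself was not called. Its log2 fold change of URE over WT was 0.40 in LSK and 0.06 in GMP. At Foxo3 and Tfeb, both activators of autophagy genes, levels were 78.6 ± 1.93 CPM and 80.4 ± 1.70 CPM for WT-LSK and 93.8 ± 6.03 CPM and 107 ± 8.41 CPM for URE-LSK, and neither was called.

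In all, 1593 of the 1731 wide regions (92.0%) were called in none of the 5 comparisons, against 31.8% of the narrower regions, and 138 in at least 1.

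Motifs were counted last, on both strands and as exact letters. In the central 300 bases, the PU.1 motif GAGGAAGT occurred in 1.39% of wide and 8.70% of all regions, the RUNX motif AACCACA in 2.89% and 14.4%, the CEBP motif TTGCNNAA in 5.72% and 16.4%, and the motif CCGGAAGT of other ETS factors in 2.48% and 1.22%. Over the whole region, where a longer sequence holds more matches, the PU.1 motif was found in 16.3% of wide regions (283) and 10.5% of all regions. The 283 had a median log2 fold change of 0.25 in LSK and 0.17 in GMP, beside 0.29 and 0.21 for wide regions without it. In narrower regions the medians were -1.19 and -0.95 with the motif (12423 regions) and 0.18 and 0.11 without. Among the wide regions called lower, 3 of 12 in LSK and 2 of 9 in GMP held the motif, and among those called higher 5 of 19 and 7 of 24. A match is a description of the sequence, and binding was not measured in these libraries.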

How the data were processed

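ATAC-seq was analysed in 12 libraries from sorted mouse bone marrow cells. The authors deposited raw counts, whole numbers per region and library without normalization. Per the labels and the study's methods, reads had been trimmed (cutadapt), aligned to GRCm38 (Bowtie2) and freed of duplicates, peaks had been called per group (Genrich) and merged (bedtools), and counts had been made with featureCounts. The counting unit (fragments or read ends) is not given in the sources used here. A peak in 1 group is enough to set a width, and peaks of several groups that touch give a wider region. A region open mainly in 1 group can thus be wide through that group. Its differences from the other groups are then not independent of the width rule. Region starts were taken as counted from 0 in the table and are printed counted from 1.

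Regions were annotated with GENCODE M21, and genes were assigned within 5 kb of a start site. Each region takes the name of the protein-coding gene whose start lies in it or is nearest. Counts were fitted in R 4.3.3 with edgeR 4.0.16 (TMM scaling, quasi-likelihood test, 1 coefficient per group, all 12 libraries, Benjamini-Hochberg adjustment over 121336 regions) with limma 3.58.1. The filter on low counts removed no region. A region was called at an adjusted p under 0.05 and an absolute log2 fold change over 1. The interaction is the URE over WT log2 fold change of GMP less that of LSK. Levels are CPM, as mean ± SD of 3 libraries. Tables were handled in Python 3.11.15 with pandas 2.3.3 and scipy 1.17.1, and the fit was tested on simulated data. Replicates are separate mice by the study's methods. The labels give no batch.

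The members, lists and tests were chosen with earlier results of these data known. Named were the 10 widest regions, the 8 with the highest CPM per kb, in each genotype comparison the 8 called with the smallest p in each direction whose libraries did not overlap, in the steps and the interaction the 4 called with the smallest p in each direction, the 4 most counted of each gene list, and 3 on each side of the width limit. Some regions that the rule names are not reported here. The regions at Ctsg in both genotype comparisons, Gm11084 in LSK, Vmp1, Myb, Maf and Chd7 were named for other reasons, after their values were seen or as single calls of a list.

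Same-numbered libraries were checked for pairing by the correlation of their deviations from the group means over regions. For WT-LSK and WT-GMP it was 0.167, 0.166 and 0.184, over 0.1 in each pair, which counts as paired here although no label ties these libraries to 1 mouse. The other group pairs did not pass 0.1 in each pair. WT-GMP and URE-GMP came close, with 0.0943, 0.194 and 0.330, and URE-LSK and URE-GMP had 0.0526, 0.256 and 0.0992. For WT-LSK and URE-LSK it was 0.0881, 0.0616 and -0.0438. Alternatives were DESeq2 1.42.0, other scalings, loess and GC content offsets, a mean CPM of at least 2, the replicate block, other width limits and thresholds, and leaving out each library.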

Additional observations from a re-analysis of the deposited data

Results flagged for a closer look

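In 12 of the wide regions named for a genotype comparison or the interaction, the genotype effect differed between the cell types, by edgeR's interaction test with an adjusted p under 0.05 and a difference over 1 on the log2 scale. Values are the log2 fold change of URE over WT in GMP minus that in LSK, and their causes were not tested.

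The difference was positive in 5 regions, where the loss seen in URE-LSK was smaller or absent in URE-GMP or the gain was larger. It was 2.07 for the region in an intron of Smyd3, 2.05 near Mcl1, 1.57 near Ifnar2, 1.53 near Ifngr1 and 1.10 near E030018B13Rik. None of these 5 has the CG content of a CpG island (ratios 0.04 to 0.32). Low ratios were not particular to them. Among the negative regions given next, Fry, Sept9, Afap1l1 and Bach2 had 0.15, 0.18, 0.21 and 0.36, and Arhgap12, Hoxa9 and Fam181b 0.76, 0.63 and 0.79.

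The difference was negative in 7 regions, where URE-GMP was lower against WT-GMP than URE-LSK against WT-LSK. The values were -2.42 near Fry, -1.94 at Arhgap12, -1.26 at Hoxa9, -1.16 near Bach2, -1.12 near Afap1l1, -1.09 near Sept9 and -1.05 at Fam181b. Near Sept9, a septin gene, URE-LSK had 91.6, 73.2 and 67.7 CPM against 47.9, 44.2 and 44.6 CPM for WT-LSK, while URE-GMP had 32.0, 29.2 and 26.1 CPM against 35.1, 36.8 and 37.1 CPM for WT-GMP, so that the groups were apart in opposite directions. Near Bach2, which encodes a repressor of lymphoid cells, WT-LSK had 19.7 ± 1.49 CPM, URE-LSK 31.8 ± 2.40 CPM, WT-GMP 28.9 ± 4.76 CPM and URE-GMP 21.0 ± 0.977 CPM (SD, n = 3).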

How the results depend on the processing

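Choices of width and threshold moved the counts of called wide regions most. In the order URE against WT in LSK, the same in GMP, the step in WT, the step in URE and the interaction, 31, 33, 48, 104 and 20 were called. Without the fold threshold the counts were 1206, 1004, 893, 858 and 154, with a width of at least 1200 bp 120, 140, 177, 333 and 80, and with at least 2000 bp 7, 9, 13, 35 and 3. Other tools, scalings and filters kept every count within 1.5 times. The median log2 fold change of the wide minus that of the narrower regions was 0.15 in LSK, 0.16 in GMP, 0.18 in the WT step, 0.07 in the URE step and -0.10 in the interaction. It reversed to -0.13 in LSK and -0.090 in GMP with GC content offsets, and to -0.19, -0.18 and -0.050 in LSK, GMP and the URE step with loess offsets, which by construction centre the changes at each abundance. The URE step moved to 0.18 with GC content offsets and the WT step to 0.029 with loess offsets. With protein-coding starts only, 86.5% of the wide regions were at a promoter.

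Leaving out single libraries gave 23 to 32, 30 to 38, 42 to 55, 100 to 118 and 16 to 25 calls in the same order, median differences of 0.13 to 0.20, 0.12 to 0.21, 0.11 to 0.21, 0.04 to 0.10 and -0.14 to -0.04, and a gain in the share of counts of 1.41 to 1.68 percentage points in LSK and 0.626 to 1.26 in GMP. With the replicate number as a block, 31, 34, 48, 104 and 21 regions were called, so that the pairing moved no count by over 1.5 times and changed no call of a named region. Of 94 fold changes of named regions under 2147 alternatives in all, 1 lost its side of the adjusted p, that near Gm11084 in LSK. Without left-out libraries, 17 of the 94 came to a log2 fold change of 1 or less in size under at least 1 alternative. With 3 libraries a group, exact tests over libraries cannot go below 0.1, and low levels limit the regions with few counts, such as that near Fry in URE-LSK.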
